A study of Sus scrofa with 12 samples.

Results

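Peaks of N6-methyladenosine (m6A) that lay at the stop codon or in the 3′UTR of boar sperm mRNAs are described here, 5973 peaks of the 61902 in the 6 peak lists of the series. A peak was taken when its midpoint, on the longest coding RefSeq transcript of the same-strand gene whose exons it overlapped most, fell in the 3′UTR or within 100 nt of the last coding base, which is the last base of the stop codon, and was nearer to that base than to the first coding base. Of all peaks, 48790 (78.8%) could be placed on such a transcript, and the stop codon and 3′UTR peaks were 12.2% of those. They fell in 3068 separate regions of 2803 genes, among 20648 coding genes of the annotation (RefSeq, Sscrofa11.1).

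The study profiled sperm of 3 mature Duroc boars by MeRIP-seq, in which fragmented RNA is pulled down with an antibody to m6A (IP) and compared with RNA that was not pulled down (input). Each ejaculate was divided. One portion was snap-frozen for RNA as fresh sperm (Fs), and the other was cooled in an extender of lactose and egg yolk, given glycerol, frozen over nitrogen vapour and stored in liquid nitrogen (Fts, frozen-thawed sperm). Both groups were washed, treated with Triton X-100 to lyse somatic cells and depleted of ribosomal RNA, and each held 3 IP libraries numbered 1 to 3. The labels do not say that a number stands for the same boar in both groups, and the correlations of the deviations of same-numbered libraries, between -0.0284 and 0.0014 over these regions, showed no pairing. Each peak carries the score that the peak caller MACS gave it, which is -log10 of a p-value multiplied by 10 and weighs the IP reads of a library against its own input reads. The lowest score in the lists stands for a p-value of 0.5, and a score of 50 stands for one of 1e-05. The lists hold no read counts, so the depth behind a single peak is unknown, and the absence of a peak does not show the absence of RNA. In such bulk samples, fewer cells of a type and less RNA per cell cannot be told apart.

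m6A is written on adenosines of mRNA by a nuclear methyltransferase complex built around METTL3 and METTL14, mostly within a short consensus around the sequence GGAC. In somatic mammalian cells the mark is known to gather around stop codons, in the early 3′UTR and in long internal exons. Reader proteins that bind it there, such as the YTH family, can alter the decay, translation and processing of the transcript. Mature sperm transcribe little or nothing, and their RNA is mostly carried over from spermatogenesis.

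The sequences of a few regions show where the peaks lay. Capitals mark, within the stop window and 3′UTR part of the region, the occurrence nearest the middle of the strictest form of the m6A consensus found there (GGACT before other forms of GGAC). All are given 5′ to 3′ on the transcript strand from the RefSeq genome of Sscrofa11.1. The first set comes from the regions with a peak in all 6 libraries and the highest scores. It holds PMP22 (chr12:58680479-58680507, minus strand, 427 nt past the last coding base), ZNF768 (chr3:17813815-17813843, plus strand, 23 nt before it), HTR1E (chr1:55495581-55495609, plus strand, 1679 nt past it) and SH3BP5L (chr2:52336915-52336943, plus strand, 1183 nt past it). The regions of PMP22 and ZNF768 each hold 1 GGACT as well, which lies further upstream in the coding sequence.
PMP22: ccacctcatttaGGACCcccaagtgtggg
ZNF768: tccgccaccagcGGACCcacgcggccggc
HTR1E: ccacctacctctGGACTcctcaacttgca
SH3BP5L: gggctgagagctGGACTctggacaggaga

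The second set comes from regions with a peak in every Fts library and in no Fs library. LDOC1 (chrX:115581780-115581808, plus strand, 518 nt past the last coding base), GATA3 (chr10:63369221-63369249, minus strand, 313 nt past it) and FAM84B (chr4:13447251-13447279, plus strand, 71 nt before it) each hold a GGACT, and RPL28 (chr6:59559254-59559282, plus strand, 23 nt before it) holds a GGACC.
LDOC1: ggacattgatttGGACTgctcacgcccac
GATA3: atattgtaagaaGGACTgcacattggaag
FAM84B: gcgacgccgcgcGGACTacgccgcctccc
RPL28: tgaagaggaagcGGACCcgccccaccaag

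The third set comes from regions with a peak in every Fs library and in no Fts library. It holds LMO1 (chr9:1082686-1082714, plus strand, 49 nt before the last coding base), GMPS (chr13:95813780-95813808, plus strand, 348 nt past it) and LARS2 (chr13:28692053-28692081, plus strand, 920 nt past it).
LMO1: cttgtgtcagctGGACTacgaggaggggc
GMPS: ggggctagtaatGGACTtctgtccccttg
LARS2: gggagacagctgGGACTggacctatgtca

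For a region that spans the stop codon itself, capitals mark the stop codon. EEF1A1 (chr1:92424751-92424780, plus strand) and PTMA (chr15:132360702-132360731, plus strand) had the highest scores of the regions found in Fts alone, and HNRNPK (chr10:30986615-30986644, plus strand) of those found in Fs alone.
EEF1A1: cagaaggctaaaTGAatattatccccaata
PTMA: gatgaggatgacTAGacagcaaaaaaggaa
HNRNPK: gttgaaggattcTAAtgcaagatatttttt

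Stop codon and 3′UTR peaks were about as numerous in fresh as in frozen-thawed sperm, but they made up a smaller share of the mRNA peaks of Fts. The lists held 792, 1037 and 1063 such peaks in the Fs libraries and 899, 1068 and 1114 in the Fts libraries, and the ranges of the groups overlapped. Their share of all placed peaks was 13.0%, 13.1% and 13.6% in Fs and 11.6%, 11.2% and 11.4% in Fts. Every Fts library was below every Fs library, with means of 13.2% ± 0.312 (SD, n = 3) and 11.4% ± 0.199 (SD, n = 3). The difference of -1.82 percentage points gave p = 0.25 in the two-sided exact sign-flip test over the 3 pairs of equal number and p = 0.1 in the two-sided exact permutation test of 3 against 3, the smallest p that each design allows. The size of the difference changed with the choice of peaks. It was -0.53 percentage points among peaks with a score of at least 20 and 0.13 among those with at least 50. It was -1.51 among the 5000 highest-scoring peaks of each library (a choice added after the values were seen) and -4.36 when the bases of the peaks were counted in place of their midpoints.

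**Figure D1:**
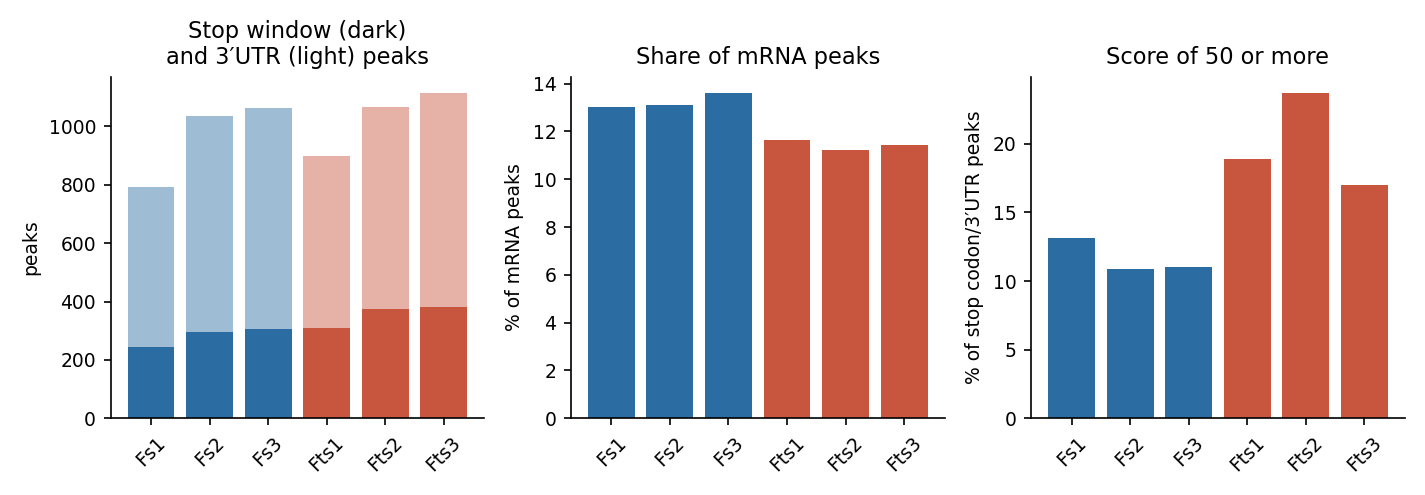
Bars show, for each of the 3 Fs (blue) and 3 Fts (red) libraries, the number of stop window and 3′UTR peaks (left), their share of the mRNA peaks placed on a transcript in percent (middle) and the percent of them with a score of 50 or more (right). The counts of the groups overlap, the shares of 11.2% to 11.6% in Fts lie below those of 13.0% to 13.6% in Fs, and the shares of strong peaks lie higher in Fts.

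Relative to its length, the 3′ end of the transcripts held fewer peak midpoints than the rest. The stop windows and 3′UTRs made up 36.9% ± 0.204 (SD, n = 3) of the length of the transcripts with a peak in Fs and 37.9% ± 0.546 (SD, n = 3) in Fts, so the share of peaks was 0.359 ± 0.0086 and 0.301 ± 0.0094 of the share of length. Counted by bases, since these peaks were long, the ratio was 0.758 ± 0.0134 (SD, n = 3) in Fs and 0.622 ± 0.0183 (SD, n = 3) in Fts, still below 1 in each library. The low ratio of midpoints came from the body of the 3′UTR. On the coding side of the stop codon, 50 to 100 nt before the last coding base, peaks lay at 1.44 ± 0.0842 times (Fs) and 1.46 ± 0.0752 times (Fts) the density given by length, and in the last 50 coding nt at 1.23 and 1.19 times. Past the stop codon the ratio was below 1 in each window measured.

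The groups differed in where along the 3′UTR the peaks lay. Fts peaks were denser than Fs peaks between 100 and 250 nt past the stop codon (ratio 0.714 against 0.572) and between 250 and 500 nt (0.456 against 0.39). Beyond that the order turned, with 0.232 in Fts against 0.338 in Fs between 500 and 1000 nt, 0.173 against 0.297 between 1000 and 2000 nt and 0.0914 against 0.163 past 2000 nt. The 3 libraries of a group did not overlap with those of the other in any of these 5 windows.

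**Figure D2:**
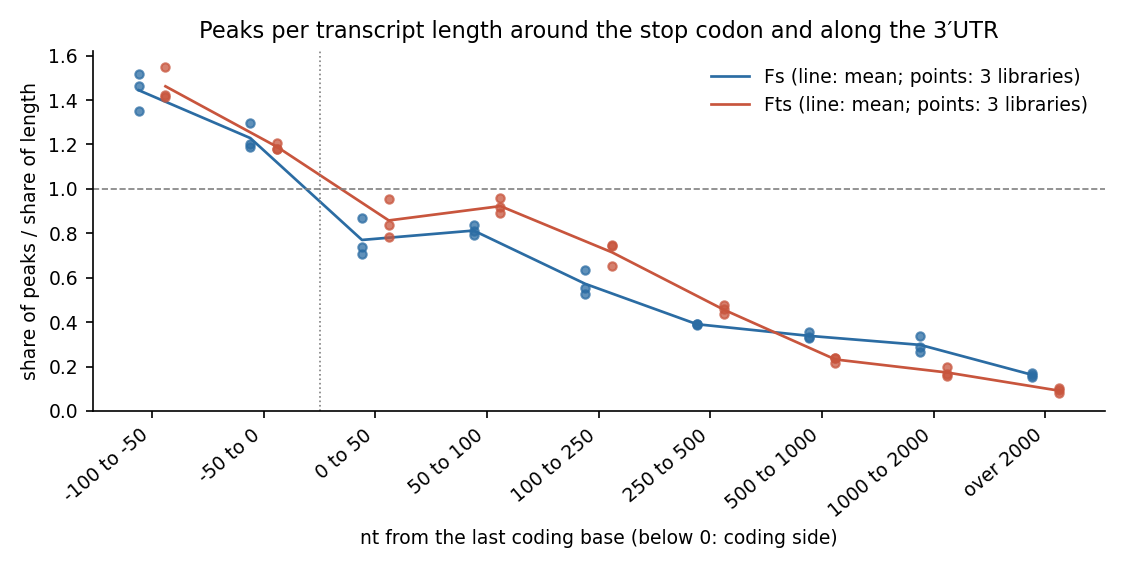
The vertical axis gives the share of the placed peaks that fell in a window divided by the share of transcript length in that window, and the horizontal axis gives the distance of the window from the last coding base in nt, with values below 0 on the coding side. Points are the 3 libraries of each group, lines join the group means, and the dashed line marks a density equal to that of length. Past the stop codon the lines cross between the window of 250 to 500 nt and that of 500 to 1000 nt. Around the stop codon they also cross, in windows where the libraries of the groups overlap.

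The midpoints of the peaks past the stop codon lay at a median of 765, 785 and 867 nt from the last coding base in Fs and of 465, 394 and 415 nt in Fts. All 3 Fts medians were lower than all 3 Fs medians, with a mean difference of -381 nt (exact sign-flip p = 0.25 over 3 pairs, exact permutation p = 0.1). Peaks more than 1000 nt past the stop codon made up 34.4% ± 2.49 (SD, n = 3) of the stop codon and 3′UTR peaks in Fs and 23.8% ± 2.01 (SD, n = 3) in Fts. This difference of -10.6 percentage points was -19.6 among peaks with a score of at least 50 and -5.59 in the genes with such a peak in both groups. As a part of the 3′UTR, the first 20% held 27.9% of the peaks past the stop codon in Fs and 35.5% in Fts, and the last 20% held 16.8% and 11.4%. The genes were in part others: the median 3′UTR of the genes with a peak was 2016 nt ± 39.3 (SD, n = 3) in Fs and 1785 nt ± 113 (SD, n = 3) in Fts. Over the 686 genes with a stop codon or 3′UTR peak in at least 1 library of each group, a subset chosen after the values were seen, the difference in median distance was -208.5 nt.

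The share of mRNA peaks that lay in the 3′UTR beyond the stop window was lower in each Fts library than in each Fs library, while the shares within the window overlapped. The window of 100 nt on either side of the last coding base held 244, 295 and 306 peaks in Fs and 310, 376 and 380 in Fts. The libraries had a mean of 7268 placed peaks in Fs and 8995 in Fts. As a share of the placed peaks these were 4.01%, 3.73% and 3.92% in Fs and 4.01%, 3.95% and 3.90% in Fts (exact permutation p = 0.7). The remaining 3′UTR held 548, 742 and 757 peaks in Fs and 589, 692 and 734 in Fts, or 9.36% ± 0.337 (SD, n = 3) and 7.48% ± 0.178 (SD, n = 3) of the placed peaks, without overlap of the groups (exact sign-flip p = 0.25, exact permutation p = 0.1). Peaks of the stop window were thus 29.3% ± 1.28 (SD, n = 3) of the stop codon and 3′UTR peaks in Fs and 34.6% ± 0.557 (SD, n = 3) in Fts, a difference of 5.25 percentage points (exact sign-flip p = 0.25, exact permutation p = 0.1), which was 1.80 in the genes with such a peak in both groups. The limit of 100 nt is set by the rule: on the coding side, the 20 nt just inside it held between 31 and 51 peaks per library and the 20 nt just outside it between 36 and 61. The 3 stop codons were used in proportions close to those of all genes with a peak, with TGA in 49.8% of the 1132 genes with a stop window peak (48.7% of the 11065 genes with a peak anywhere), TAA in 27.7% (28.6%) and TAG in 22.5% (22.6%).

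Peaks at the 3′ end had higher scores in the Fts libraries, as had those of the coding sequence. The study lists fewer mapped reads for each Fts IP library than for each Fs IP library. The inputs of Fts libraries 1 and 2 also had fewer mapped reads than each Fs input, while that of Fts library 3 lay within the Fs range. A smaller share of the clean input reads mapped in each Fts library than in each Fs library. The part of depth in the scores was not tested. The median score of stop codon and 3′UTR peaks was 10.03, 9.95 and 8.90 in Fs and 11.4, 13.8 and 11.9 in Fts. A score of at least 50 was reached by 104, 113 and 117 peaks in Fs and by 170, 253 and 189 in Fts, or 11.7% ± 1.26 (SD, n = 3) and 19.9% ± 3.46 (SD, n = 3) of the peaks. The groups did not overlap, and the difference was 8.18 percentage points (exact sign-flip p = 0.25, exact permutation p = 0.1). It was 23.4 among the 5000 highest-scoring peaks of each library and 4.50 in the genes with such a peak in both groups. On average most of the stop codon and 3′UTR peaks were weak in both groups: 60.9% in Fs and 52.0% in Fts had a p-value above 0.05 (48.3% in Fts library 2). Coding peaks showed 15.5% ± 1.35 (SD, n = 3) with a score of at least 50 in Fs and 23.4% ± 3.86 (SD, n = 3) in Fts. Within a library, stop codon and 3′UTR peaks reached 50 less often than coding peaks, by 3.71 percentage points ± 1.58 (SD, n = 6) on average and in 6 of 6 libraries (p = 0.031 by an exact two-sided sign-flip test, whose smallest p over 6 libraries this is). By the same exact test the call was lost with a stop window of 200 nt (-2.49 percentage points, p = 0.0625), with the 5000 highest-scoring peaks of each library (-4.03, p = 0.0625) and in the genes with such a peak in both groups (-2.88, p = 0.1875). The 6 libraries came from 3 boars and are not 6 independent units. Over 3 boars the smallest p of the sign-flip test is 0.25, so no result over 6 libraries given here would pass 0.05. The gap to the coding peaks was -3.84 in Fs and -3.58 in Fts, and its difference between the groups gave p = 0.9 (exact permutation test).

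The peaks were also long, and in Fts more of them began at an exon junction. Their median length was 539, 503 and 491 bp in Fs and 569, 619.5 and 595 bp in Fts, against 134 to 137 bp (Fs) and 152 to 157 bp (Fts) for coding peaks. The excess over coding peaks was 408 bp ± 40.9 (SD, n = 6), in 6 of 6 libraries (exact sign-flip p = 0.031). The share of stop codon and 3′UTR peaks with an end exactly at an exon boundary, a measure added after the values were seen, was 35.4%, 35.7% and 33.5% in Fs and 51.3%, 59.1% and 56.1% in Fts. Nearly all of it was the upstream boundary of the exon, at 32.6% ± 1.19 (SD, n = 3) against 53.9% ± 3.67 (SD, n = 3), while the end of the transcript was reached by 1.83% and 1.93%. In the genes with such a peak in both groups the difference in boundary share was 9.26 percentage points, against 20.6 over all genes. The deposited peaks had been restricted to mRNAs by the program of the authors, and whether it trimmed peaks at exon ends was not tested.

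Within the same stop windows and 3′UTRs, the peaks were richer in the strict m6A motif than the sequence outside them. The motif GGACT occurred 0.966 times per kb ± 0.0266 (SD, n = 6) in the peaks and 0.791 times per kb ± 0.0095 (SD, n = 6) in the rest of the stop windows and 3′UTRs of the same transcripts, searched on the transcript strand alone. It was denser in the peaks of 6 of 6 libraries (difference 0.175 per kb, exact sign-flip p = 0.031 over 6 libraries, which came from 3 boars). In the 686 genes with such a peak in both groups it was also denser in 6 of 6 libraries, by 0.154 per kb in Fs and 0.0546 per kb in Fts on average. GC content moved with it, at 47.0% in the peaks and 43.3% in the rest (difference 3.73 percentage points, 6 of 6 libraries, exact sign-flip p = 0.031), and the part of base composition in the motif difference was not tested. Repeat-masked bases made up 16.4% of the peaks and 20.5% of the rest, lower in the peaks of 6 of 6 libraries (exact sign-flip p = 0.031). The polyadenylation signal AATAAA occurred 0.851 times per kb in the peaks and 0.988 times in the rest, again lower in 6 of 6 libraries (exact sign-flip p = 0.031).

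The broad motif RRACH, in which R stands for A or G and H for any base but G, and which includes GGACT, did not separate peaks from the rest over the 6 libraries (13.07 against 13.08 per kb, exact sign-flip p = 0.94). In each Fs library the peaks held fewer of these motifs than the rest (differences of -0.447 to -0.278 per kb), and in each Fts library they held more (0.197 to 0.42 per kb). The exact permutation test of the 2 groups of differences gave p = 0.1. In the genes with such a peak in both groups the groups did not have opposite signs. There the peaks held fewer of the motifs than the rest in 6 of 6 libraries. The differences were -0.649 to -0.622 per kb in Fs and -0.674 to -0.355 in Fts (mean -0.586, exact sign-flip p = 0.031 over 6 libraries; exact permutation p = 0.5 between the groups). GGACT itself differed between Fs peaks (0.960 per kb ± 0.0063, SD, n = 3) and Fts peaks (0.973 per kb ± 0.04, SD, n = 3) by less than the spread of the libraries.

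**Figure D3:**
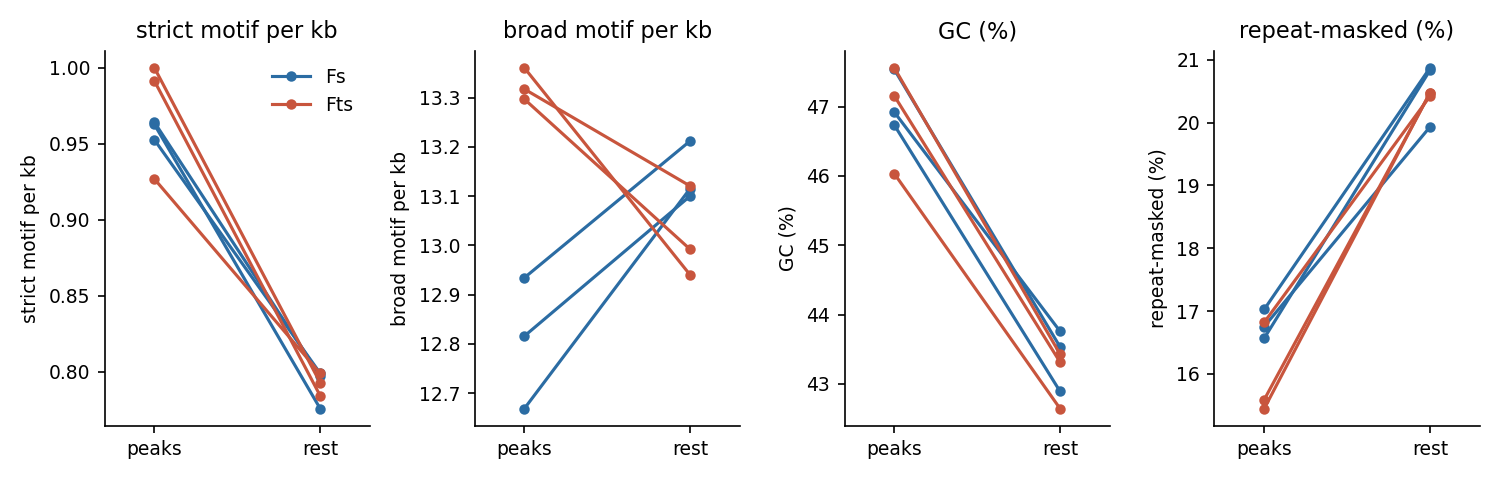
Each line joins the value of 1 library in its stop codon and 3′UTR peaks with that in the rest of the stop windows and 3′UTRs of the same transcripts, for Fs (blue) and Fts (red); the vertical axes give, from left to right, the strict motif (GGACT) and the broad motif (RRACH) per kb, GC content in percent and repeat-masked bases in percent, and do not start at 0. The lines fall in 6 of 6 libraries for the strict motif and GC content, rise in 6 of 6 for repeats, and for the broad motif rise in Fs and fall in Fts.

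Few regions recurred across the libraries. Of the 3068 regions, 1508 (49.2%) had a peak in 1 library, against 47.6% of all 29713 regions of mRNA peaks, and 108 (3.52%) had a peak in all 6, against 3.5% of all regions. A peak in all 3 Fts libraries and no Fs library was found in 166 regions (5.41%), where the background over all regions was 6.34%. A peak in all 3 Fs libraries and no Fts library was found in 116 (3.78%), where the background was 3.71%. These shares lay near those of all regions. When at least 1 peak of the region also had to reach a score of 50, 81 regions (2.64%, background 3.35%) remained for Fts and 26 (0.847%, background 1.05%) for Fs. The Fts regions lay nearer the stop codon, with a median midpoint 168.5 nt past the last coding base against 594.5 nt for the Fs regions and 526 nt for those of all 6 libraries.

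**Figure D4:**
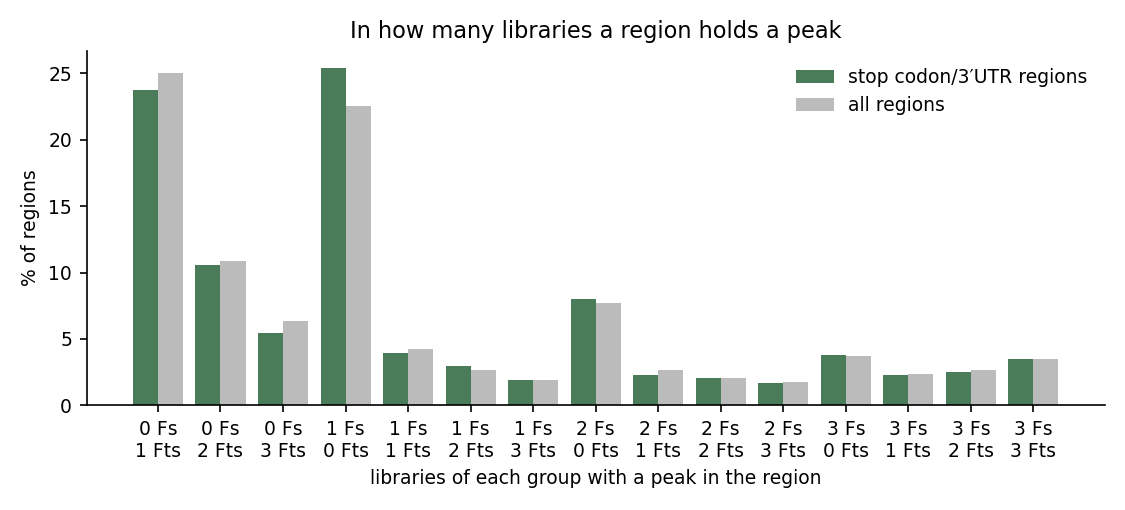
Bars give the percent of regions (vertical axis) with a peak in each combination of Fs and Fts libraries (horizontal axis), for the 3068 stop codon and 3′UTR regions (green) and all 29713 regions (grey). Regions with a peak in 1 library are the most common in both, and the green bars for 3 Fts and 0 Fs (5.41%) and 3 Fs and 0 Fts (3.78%) stand near the grey ones (6.34% and 3.71%).

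The regions that recurred in all 6 libraries with the highest median scores included those of RAB8A, CFAP100 and USH1C. The region of PMP22, a peripheral myelin membrane protein (chr12:58680423-58681083, exon 5 of 5, across the stop codon), had scores of 33.1, 819 and 251 in Fs and 392, 582 and 470.5 in Fts. RAB8A, a small GTPase of transport to the cell surface and the cilium (chr2:61431077-61432050, exon 8 of 8, across the stop codon), scored 498, 739 and 744 in Fs and 339, 270.3 and 283 in Fts. The Fs values of RAB8A were all higher than the Fts values, while those of PMP22 overlapped.

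CFAP100, which belongs to the proteins associated with cilia and flagella (chr7:53949343-53949879, exon 14 of 14, across the stop codon), scored 193, 513 and 52.1 in Fs and 2482, 2421 and 114.3 in Fts. Here 2 Fts libraries stood far above the other 4. ZNF768, a zinc finger protein, scored 69.5, 184 and 296 in Fs and 437, 340.3 and 388 in Fts, and HTR1E, a serotonin receptor, whose region lay in the 3′UTR (midpoint 1620 nt past the last coding base), scored 32.2, 256 and 14.1 in Fs and 517, 366 and 464 in Fts. In both genes each Fts score was above each Fs score. SH3BP5L (midpoint 1385 nt past the last coding base in a 3′UTR of 1452 nt) also had its 3 higher scores in Fts, of 262 to 489 against 85.2 to 223.

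The 4 others with the highest median scores overlapped between the groups. LRRC74A, with a midpoint 76 nt before the last coding base, ranged from 135 to 325 in Fs and from 180 to 347 in Fts, and USH1C, the scaffold protein harmonin, from 44.2 to 475 and from 149 to 357. SDSL, an enzyme resembling serine dehydratase, ranged from 53.3 to 307 in Fs and from 204 to 280 in Fts, and SIX3, a homeobox factor of the forebrain and eye, from 112 to 372 and from 148 to 225. Over the 108 regions, every Fts score exceeded every Fs score in 16 (14.8%, where the background over all regions with a peak in 6 libraries was 12.7%), and the reverse held in 17 (15.7%, where it was 21.9%).

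Of the 10 named regions found in Fts alone, 6 belonged to EEF1A1, PTMA, YBX1, FTH1 and the ribosomal protein genes RPL28 and RPL17. EEF1A1, the elongation factor that brings aminoacyl-tRNA to the ribosome, had a peak across its stop codon (chr1:92424306-92425412, exon 8 of 8) with scores of 3100, 3100 and 1385 in Fts. PTMA, prothymosin alpha, an acidic nuclear protein (chr15:132360669-132361442, exon 6 of 6), scored 2771, 3100 and 3100. YBX1, a cold shock domain protein that binds mRNA (chr6:168716727-168717172, exon 9 of 9, 3′UTR), scored 894, 3067 and 2698. The value of exactly 3100 was listed for 20 stop codon and 3′UTR peaks in all. It was the highest score of these peaks in each Fs library and in Fts libraries 1 and 3. Whether it is a set value of the scoring was not tested, and peaks at 3100 cannot be ranked by score.

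None of these 3 regions had a peak in an Fs library. YBX1 had 1, 0 and 1 peaks anywhere in the gene in Fs and 5, 5 and 5 in Fts, and EEF1A1 and PTMA had none in Fs. FTH1, the heavy chain of the iron store ferritin, scored 380, 1171 and 282 at its stop codon, and RPL28 scored 1363, 2557 and 913.5. The region of RPL17 scored 550, 374 and 707. A peak of RPL17 with its midpoint at the stop codon or in the 3′UTR was found in Fts library 2 alone, and the peaks of Fts libraries 1 and 3 had midpoints elsewhere. The regions of FTH1, RPL28 and RPL17 had no Fs peak. These genes have near-identical processed copies elsewhere in mammalian genomes, so the assignment of their reads to one locus is uncertain.

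The other 4 named regions of the Fts libraries belonged to LDOC1, THBS2, FAM84B and GATA3. Processed copies were not counted for any gene. LDOC1, a gene derived from a retrotransposon and consisting of 1 exon (chrX:115580707-115582831), scored 737, 1771 and 1723, and THBS2, a matrix glycoprotein (chr1:880555-880969, 3′UTR), 594, 700.3 and 815. FAM84B scored 348, 1044 and 774 and GATA3, a transcription factor of lymphocytes and many epithelia, 271, 537 and 473. In Fs, THBS2 had a peak elsewhere in the gene in 1 library and the other 3 genes had none. Further regions of this kind, chosen after their values were seen, were those of ELF5 (192, 370 and 425) and EHF (192, 343.5 and 179), transcription factors of the ETS family. Neither gene is on a gene or marker list read below, and they stand for no cell type here.

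Regions found in Fs alone were weaker. HNRNPK, an RNA-binding protein of the spliceosome-associated hnRNP family (chr10:30986596-30986799, exon 16 of 16), had the strongest, at 786, 825 and 509 just past its stop codon. The gene was not without peaks in Fts, where it held 3, 4 and 4 elsewhere, and it too has processed copies. LMO1, a LIM-domain cofactor of transcription (chr9:1082644-1082974, exon 5 of 5), scored 235, 251 and 185 and had no peak anywhere in the gene in Fts.

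OTP, a homeobox factor (83.2, 232 and 98.2), and FEV, an ETS factor of serotonin neurons (53.5, 75.5 and 46.8), also had stop window peaks in Fs and none in the gene in Fts. The same held for MFSD12, a lysosomal transporter (64.5, 66.9 and 108.5), and for MYL3, a myosin light chain (42.8, 104.7 and 207). The region of MFSD12 lay in exon 9 of 10, with its midpoint 88 nt before the last coding base, and that of MYL3 was 29 bp long. LARS2, the mitochondrial leucyl-tRNA synthetase, had peaks in its 3′UTR in Fs (34.3, 36.4 and 122) and none in the gene in Fts. GMPS, which makes GMP, scored 114, 107 and 57.0 in Fs, with 2, 3 and 2 other peaks in the gene in Fts, and POT1, a telomere protein, scored 42.2, 33.8 and 58.3, deep in its 3′UTR (midpoint 2425 nt past the last coding base).

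**Figure D5:**
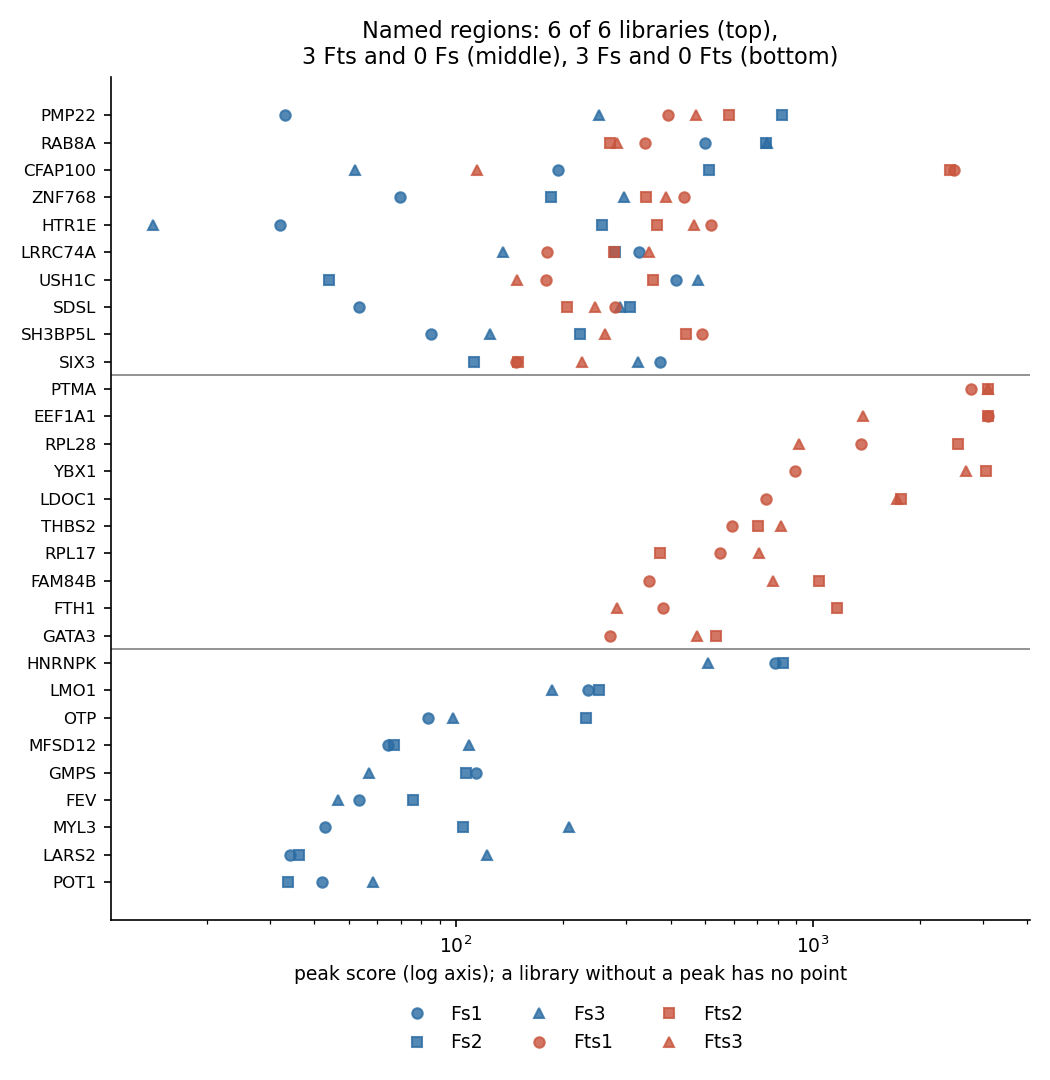
Points give the score of the best peak in each region (horizontal log axis) for the named regions (vertical axis), by library, with Fs in blue and Fts in red; a library without a peak has no point. The regions of the Fts libraries in the middle block reach 3100, and those of the Fs libraries in the bottom block lie between 33.8 and 825.

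Some genes held several regions. CCDC159, with a 3′UTR of 9675 nt in the annotation, had 7, of which 2 lay in all Fs libraries and 2 Fts libraries and 2 others in all Fts libraries alone. The region 6513 nt past its last coding base had peaks in Fs alone (11.09, 3.19 and 28.8) and the next one, at 7216 nt, in Fts alone (38.3, 15.8 and 6.06). ATF7, a transcription factor of the ATF/CREB family with a 3′UTR of 7457 nt, had 4, and its region at 3581 nt was in 5 of 6 libraries, with scores of 6.08 and 10.9 in Fs and of 25.1, 25.5 and 6.10 in Fts. ATL3 and BICD1 were among the genes with 3 regions, which came next.

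Lists of genes are read against 13.6%, the share of all 20648 coding genes with a stop codon or 3′UTR peak, and none was tested. That share counts genes without any peak: 11065 genes had a peak anywhere and 2803 a stop codon or 3′UTR peak. A list share above 13.6% therefore does not set a list apart from other genes with a peak. Among the genes that write, read or remove m6A, 6 of 20 annotated (30.0%) had such a peak, 1 of them in every Fts library and no Fs library, where the background over the 2803 genes with such a peak was 4.89% (and 3.35% for the reverse). It was HNRNPA2B1, a nuclear RNA-binding protein described as a reader, at 137, 649 and 221. YTHDC1, the nuclear YTH reader, scored 44.9 in 1 Fs library and 329, 279 and 223 in Fts. HNRNPC, an RNA-binding protein whose access to RNA m6A can alter, had a peak in all 6 libraries, at 3.64, 24.9 and 23.3 in Fs and 17.0, 175 and 56.2 in Fts. METTL3, METTL14, FTO and ALKBH5 had no stop codon or 3′UTR peak in a library.

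Of the 44 genes of 3′ end processing, deadenylation and decay, 11 (25%) had such a peak, 5 in more Fts than Fs libraries and 6 in more Fs. UPF2, a factor of nonsense-mediated decay, had 31.0 in 1 Fs library and 183, 16.9 and 38.5 in Fts, and the decapping enzyme DCP2 had 13.4, 13.0 and 32.7 in Fs and 3.23 in 1 Fts library. Of 33 factors of translation termination and 3′UTR binding, 11 (33.3%) had such a peak, 4 in more Fts libraries and 5 in more Fs libraries. TNRC6B, a partner of Argonaute in silencing by miRNAs, had peaks in Fs alone (9.84, 16.1 and 8.18), and FXR1, an RNA-binding protein required in spermatids, in Fts alone (8.82, 10.6 and 3.4). AGO1, KHSRP and the Musashi protein MSI2 had a peak in every Fs library, AGO1 with the highest scores (37.2, 51.2 and 117.5), and MSI2 in every Fts library as well (4.51 to 7.74 in Fs and 11.4 to 18.4 in Fts).

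Of the genes of sperm structure, a stop codon or 3′UTR peak was found in 4 of 42 genes of the tail (9.52%), 3 of 28 of the head, acrosome and gamete fusion (10.7%) and 1 of 18 of sperm chromatin (5.56%). ACR, the acrosomal protease acrosin, was the single one with a peak in all 3 Fs libraries and no Fts library, at 18.6, 4.80 and 30.5. CALR3, a calreticulin of the testis, had the highest scores among these genes, at 7.07 and 4.81 in 2 Fs libraries and 46.1 and 62.5 in 2 Fts libraries. SPAG17, CFAP69, TTLL5 and DRC1 of the tail and YBX2 of the chromatin list had peaks in 1 or 2 of the 6 libraries, all with scores of 5.78 or less, and SPACA3 of the head list in 1 Fs library (6.20).

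Genes of energy metabolism had such a peak in 6 of 40 (15.0%), in more Fts libraries for 4 and in more Fs libraries for 2, and PGAM1, a glycolytic mutase, in Fts alone (28.4, 7.41 and 31.2). Of 42 genes of heat shock and redox, 8 (19.0%) had one, 6 of them in more Fts libraries and 1 in more Fs libraries. HSPA4L, a chaperone of the HSP110 family expressed in the testis, scored 3.3 and 7.87 in 2 Fs libraries and 60.6, 18.1 and 7.49 in Fts. Of 26 apoptosis genes, 5 (19.2%) had one, 4 of them in more Fs libraries, among them the survival protein BCL2 (10.8, 56.0 and 11.2) and CARD6 (20.9, 18.8 and 27.3), both in Fs alone. Over all 2803 genes, 1287 had such a peak in more Fts than Fs libraries and 1225 in more Fs.

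Of the genes the study names in its text, which it chose on these samples, 8 of 28 (28.6%) had a stop codon or 3′UTR peak, 5 in more Fts libraries and 2 in more Fs libraries. FOXO3, a forkhead factor of stress and survival, had them in Fts alone, with weak scores of 6.56, 4.20 and 6.55. Anywhere in the gene, FOXO3 had 1, 1 and 1 peaks in Fs and 4, 3 and 3 in Fts. CARD6, given above, had them in Fs alone, but anywhere in the gene it had 3, 2 and 3 peaks in Fs and 2, 2 and 2 in Fts. The study lists CARD6 as more methylated in Fts and its mRNA as lower in Fts, from comparisons that were not used here. NCALD, a neuronal calcium sensor, had a stop codon or 3′UTR peak in all 6 libraries, at 5.59, 18.4 and 28.8 in Fs and 31.5, 23.4 and 42.0 in Fts. The study lists NCALD, too, as more methylated and with less mRNA in Fts.

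Cytosolic ribosomal protein genes, with their paralogs, had such peaks mostly in Fts; this list was made after the values were seen. Of 81 such genes 42 (51.9%) had a stop codon or 3′UTR peak, 39 of them in more Fts than Fs libraries and 1 in more Fs libraries, and 7 in all Fts and no Fs libraries. Per library, 4, 2 and 3 of them had such a peak in Fs and 29, 29 and 17 in Fts. The difference was not confined to the 3′ end, since 13, 10 and 8 of the 81 had a peak anywhere in Fs and 62, 59 and 51 in Fts. RPL4, of the large subunit, scored 1402, 3206 and 120 in Fts at its 3′ end and RPL8 526, 1451 and 204, both without such a peak in Fs. RPL26 scored 7.27 in 1 Fs library and 783, 1273 and 1086 in Fts, whereas RPL9 had a peak in all 6 libraries, at 23.5 to 29.6 in Fs and 11.9 to 50.5 in Fts. Without the ribosomal protein genes the difference in the share of stop window peaks was 3.98 percentage points and that in median distance from the stop codon was -369 nt.

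Markers of the labelled cell type and of other cells were read from the same lists. PRM1, TNP1, ODF1 and AKAP4, defining genes of sperm, had no peak in any library, nor had IZUMO1, GAPDHS, SMCP, SPA17, TSSK6 and OAZ3. The rest of the 24 sperm markers, such as ACR, had a peak in at least 1 library. Per library, 5 to 6 of the 24 had a peak anywhere in Fs and 5 to 8 in Fts. Of 15 epithelial and genital tract markers, 3 (20.0%) had a stop codon or 3′UTR peak, all 3 in Fts alone, with KRT19 in every Fts library (107, 171 and 172) and KRT8 and CDH1 in 1 each. Over the whole list 2, 4 and 4 markers had a peak anywhere in Fs and 3, 3 and 5 in Fts, and EPCAM, KRT5, CLDN3, CLDN4 and CLDN7 had none. Leukocyte markers had such a peak in 5 of 17 (29.4%; 0, 2 and 2 per Fs library, 1, 1 and 1 per Fts library), stromal and endothelial markers in 3 of 12 (25%) and testicular somatic and early germ cell markers in 1 of 15 (6.67%). FN1, fibronectin, had 1, 2 and 0 peaks in all in Fs and 32, 31 and 27 in Fts, with a stop codon or 3′UTR peak in 2 Fts libraries (73.3 and 46.9). The stromal and endothelial list as a whole did not follow FN1. Of its 12 markers, 8, 8 and 6 had a peak anywhere in Fs and 7, 5 and 7 in Fts. DCN and PECAM1 had a stop codon or 3′UTR peak in more Fs than Fts libraries. The part of other cells in the differences between Fs and Fts was not tested.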

How the data were processed

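The authors trimmed reads with cutadapt 1.9.3, aligned them with HISAT2 to susScr11 (Sscrofa11.1), called peaks with MACS in each IP library against its input and kept those on mRNAs. The libraries were made with a directional kit. The deposited value of a peak is the MACS score, used as the authors gave it. A second deposited list, of the sites that the authors found to differ between Fts and Fs with diffReps, was not used, and neither reads nor counts were analysed here; the total number of reads per library is not in the peak lists. The study lists fewer mapped reads for each Fts IP library than for each Fs IP library. It also lists fewer for the inputs of Fts libraries 1 and 2 than for each Fs input, with that of Fts library 3 within the Fs range. The part of depth in the differences was not tested. 

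Peaks of the 6 lists were placed on RefSeq transcripts by their midpoint, with at least 1 bp of exon on the same strand (Python 3.11.15, pandas 2.3.3, numpy 2.4.6, samtools 1.23.1). Between 2.15% and 3.93% of the stop codon and 3′UTR peaks also overlapped an exon of the other strand. Regions are the same-strand union of the 6 lists, overlapping by at least 1 bp, and a region counts here when it holds a stop codon or 3′UTR peak in at least 1 library, so the peaks of its other libraries may have midpoints elsewhere. The median length, score and motif density were taken per library, groups are given as mean ± SD, and all tests were two-sided exact sign-flip or permutation tests over libraries, with no adjustment over the measures. The 6 libraries came from 3 boars, so a sign-flip test over 6 libraries takes the Fs and Fts portions of a boar as separate units. As the study's design was paired, the pairs of equal number were the main block. Same-numbered libraries did not deviate together (-0.0191 to -0.0039 over all regions).

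The regions named are the 10 with the highest median score in 6 libraries and the 10 with the highest lowest score in each of the 2 groups alone, the 5 genes with most regions, and genes of 16 lists with such a peak in all 3 libraries of a group, or all of a list where few; genes without a symbol were counted and not named, and 2 genes that the rule names are not reported here. Members and lists were chosen with earlier results of these data known. The code was tested on simulated peaks.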

Additional observations from a re-analysis of the deposited data

Results flagged for a closer look

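The broad motif RRACH stood out because the groups moved in opposite directions. In the 3 Fs libraries the stop codon and 3′UTR peaks held on average 0.336 fewer of these motifs per kb than the rest of the same stop windows and 3′UTRs (a mean difference of -0.336), and in the 3 Fts libraries 0.307 more. Every Fs library was below 0 and every Fts library above 0, and the difference between the groups gave p = 0.1 in the exact permutation test, the smallest that 3 against 3 allow. In the 686 genes with such a peak in both groups, the opposite movement was not found: the mean differences were -0.633 per kb in Fs and -0.54 in Fts, below 0 in 6 of 6 libraries. With DRACH in place of RRACH (D for any base but C), the group means did not move in opposite directions either. The peaks held 18.20 per kb against 19.03 in the rest in Fs, and 18.88 against 18.90 in Fts. The mean difference over 6 libraries was -0.429 per kb (exact sign-flip p = 0.094).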

How the results depend on the processing

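Each difference between the groups was computed again without the replicate block, as a permutation of 3 against 3: the differences stayed as they were (63 peaks, -1.82 percentage points of share, -381 nt of median distance), and p changed without passing 0.05. The pairing by number could change no call. None of the differences between Fts and Fs could pass 0.05 in either design. Of 239 values under alternatives, 191 kept their direction, side of 0.05 and, for a count, came within 1.5 times of it, and 14 turned in direction. Part of the 191 was fixed in advance. The differences without the block repeat the main ones, and no difference between the groups could change its side of 0.05.

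With a minimum score of 20, the regions found in 3 Fts and 0 Fs, in 3 Fs and 0 Fts and in all 6 libraries were 76, 35 and 38. With a minimum of 50 they were 51, 17 and 12, and the difference in share (0.13), in the share found in both other libraries of the group (0.142) and in repeat-masked percent (0.540) turned to above 0. Fewer peaks entered by construction. Counted by bases, the difference in share was -4.36. With a stop window of 200 nt the gap in strong peaks to the coding sequence was -2.49 (exact sign-flip p = 0.0625) and the RRACH difference turned to 0.112 per kb, as it did with the transcript of the longest coding sequence (0.0439). The causes were not tested.

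Further alternatives were added after the data were seen. With the 5000 highest-scoring peaks of each library, the difference in number was -24, in GGACT -0.0232 per kb and in strong peaks against coding peaks -4.03 (exact sign-flip p = 0.0625), and the regions were 90, 76 and 48. In the 686 genes with a stop codon or 3′UTR peak in both groups, the difference in number was -26.7, in GGACT -0.0746 per kb, in strong peaks against coding peaks -2.88 (exact sign-flip p = 0.1875, so the call was lost) and in RRACH -0.586 per kb, below 0 in 6 of 6 libraries (exact sign-flip p = 0.031).

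Leaving out each number in turn, a test over 4 libraries cannot pass 0.05, so the differences against coding peaks and against the rest lost their call by construction, at -4.35 to -3.28 for strong peaks, 404 to 412 bp for length, 0.164 to 0.189 per kb for GGACT, 3.60 to 3.84 for GC and -4.50 to -3.87 for repeats. RRACH ran from -0.0574 to 0.0408 per kb. Between the groups, recurrence in the other libraries ran from -0.538 to 2.28, GC from -0.634 to 0.530 and GGACT from -6.9e-06 to 0.0381 per kb. Regions with a peak in both remaining libraries of Fts and none of Fs were 256 to 365, and the reverse 189 to 288.

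The peak lists set the limits. They hold no read counts or coverage, and the reads behind a peak are unknown. On average more than 50% of the stop codon and 3′UTR peaks of a library had, in each group, a p-value above 0.05.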
